A study of Mus musculus with 12 samples.

Results

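The genes described here are 10 members of the matrix protease system: the matrix metalloproteinase (MMP) genes Mmp2, Mmp3, Mmp7, Mmp9, Mmp11 and Mmp14, the tissue inhibitor of metalloproteinase genes Timp1, Timp2 and Timp3, and Plau, which encodes urokinase plasminogen activator. They were taken by name, 10 of 24421 genes in each file, and all 10 were among the 13375 genes that passed a minimum mean level and were tested. Their transcripts were measured by RNA-seq in mouse prostate (ventral and dorsolateral lobes) as FPKM, which counts fragments relative to gene length and library size, so that levels can be set side by side between genes. The 12 libraries fall into 7 groups: a prostate tumor from a TRAMP mouse on control diet at 24 weeks (1 library), TRAMP prostate on PEITC diet at 24 weeks (2 libraries), TRAMP prostate on control diet at 24 weeks (2), TRAMP prostate on PEITC diet at 16 weeks (2), TRAMP prostate on control diet at 16 weeks (2), wild type prostate on control diet at 24 weeks (2) and wild type prostate on control diet at 16 weeks (1). TRAMP mice (strain C57BL/6-Tg(TRAMP)8247Ng/J, against C57BL/6 for wild type) carry the SV40 T antigens under the probasin promoter, which is active in prostate epithelium and depends on androgen. PEITC is phenethyl isothiocyanate, a compound from cruciferous vegetables, given at 0.05% by weight in the AIN93M diet that the other mice ate without it.

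MMPs are secreted or membrane-bound zinc proteases that cut collagens, laminins, proteoglycans and cell surface proteins, and most are made as inactive proenzymes. TIMPs bind the active site of MMPs and block it. Urokinase turns plasminogen into plasmin, which cuts fibrin and can activate several pro-MMPs. Because transcript levels were measured, protease activity is not known from these data.

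The submitters' processing notes name the mm10 build. On it, Mmp3 lies at chr9:7445822-7455975 and Mmp7 at chr9:7692090-7699585, both on the plus strand. Timp1 lies at chrX:20870166-20874735 and Timp3 at chr10:86300372-86349506, also on the plus strand, and Plau at chr14:20836660-20843385. The others are Mmp2 at chr8:92827291-92853420, Mmp9 at chr2:164940780-164955850 and Mmp14 at chr14:54431612-54445364 on the plus strand, and Mmp11 at chr10:75923222-75936496 and Timp2 at chr11:118301069-118355740 on the minus strand. All 10 are annotated as protein-coding. The promoter windows of Mmp3, Mmp7 and Timp1 are shown because these genes stood highest in the tumor relative to wild type prostate. Each window is the 250 bases before the gene's start, from RefSeq on GRCm38.p6 (the mm10 assembly), read 5′ to 3′ on the plus strand. They span chr9:7445572-7445821, chr9:7691840-7692089 and chrX:20869916-20870165. Capitals mark matches to the AP-1 motif TGANTCA and to the TATA box TATAAA.
Mmp3: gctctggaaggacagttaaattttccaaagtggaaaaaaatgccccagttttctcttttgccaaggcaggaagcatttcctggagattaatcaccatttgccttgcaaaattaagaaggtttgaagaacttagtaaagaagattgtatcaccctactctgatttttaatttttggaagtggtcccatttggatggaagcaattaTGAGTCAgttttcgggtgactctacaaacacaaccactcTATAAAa
Mmp7: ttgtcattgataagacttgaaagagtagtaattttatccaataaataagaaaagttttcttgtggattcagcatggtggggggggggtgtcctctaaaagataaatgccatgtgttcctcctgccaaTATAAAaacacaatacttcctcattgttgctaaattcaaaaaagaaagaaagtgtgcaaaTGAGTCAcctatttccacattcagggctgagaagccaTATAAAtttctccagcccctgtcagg
Timp1: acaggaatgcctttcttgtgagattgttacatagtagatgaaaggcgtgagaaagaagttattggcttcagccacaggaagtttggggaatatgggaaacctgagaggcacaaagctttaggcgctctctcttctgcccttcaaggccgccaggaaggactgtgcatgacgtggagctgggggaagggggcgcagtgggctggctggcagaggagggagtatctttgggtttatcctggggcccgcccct

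The AP-1 motif is bound by dimers of Fos and Jun proteins. It was matched as TGAGTCA at position -46 in the Mmp3 window and at position -63 in the Mmp7 window, counted back from the last base before the gene's start. Neither motif was found in the Timp1 window. Both strands were searched, and the AP-1 and TATA matches did not overlap. Of 32851 promoter windows of the same length, 6.75% held the AP-1 motif and 12.4% the TATA box. In the other windows found for these genes (a second one for Mmp7, at chr9:7692091-7692340, and those of Mmp11, Mmp14, Timp2 and Timp3) neither motif was matched. A match describes letters in a window, not binding.

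Across the series, library FPKM sums lay between 395678 and 467650, between 17113 and 18505 genes were above 0, and the deepest library held 1.57 times the reads of the shallowest, which was the 16-week wild type library. The luminal epithelial genes Krt8 and Epcam were high throughout, at 346 to 614 FPKM and 352 to 559 FPKM, as the tissue label has it. The summed prostate secretory markers stood at 2727 FPKM in the tumor, 3496 to 8190 FPKM in TRAMP prostate and 25387 to 30349 FPKM in wild type prostate. Summed seminal vesicle markers (9 genes) reached 7826 FPKM in the 16-week wild type library, against 0 to 8.02 FPKM in the other 11 libraries, so that library goes beyond its prostate label. Neutrophil markers were at or near 0, with sums of 4.85 FPKM in the tumor and at most 1.02 FPKM in any other library. Summed macrophage markers were 239 FPKM in the tumor, 88.4 to 293 FPKM in TRAMP prostate and 54.9 to 69.6 FPKM in wild type prostate. One PEITC library at 24 weeks (replicate 1) had the highest summed adipocyte markers, 377 FPKM against 13.8 to 245 FPKM elsewhere. Its summed neuroendocrine markers were the highest too, 35.5 FPKM against 1.36 to 8.06 FPKM elsewhere.

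Mmp7 was the most abundant of the 6 MMP genes in every library. Mmp7 encodes matrilysin, a small MMP that glandular epithelial cells make and that cleaves laminin, E-cadherin and prodefensins. Its level was 997 FPKM in the tumor. In TRAMP prostate it was 412 and 489 FPKM on PEITC at 24 weeks, 265 and 520.2 FPKM on control diet at 24 weeks, 185 and 258 FPKM on PEITC at 16 weeks, and 529 and 331 FPKM on control diet at 16 weeks. In wild type prostate it was 26.1 and 26.2 FPKM at 24 weeks and 152 FPKM at 16 weeks. The tumor stood above every other library, and all 8 TRAMP prostate libraries stood above all 3 wild type libraries. Among genes ranked by FPKM within a library, Mmp7 was number 14 in the tumor, between 53 and 304 in TRAMP prostate, and in wild type prostate 3668 and 3691 at 24 weeks and 519 at 16 weeks. It supplied 95.3% of the summed FPKM of the 6 MMP genes in the tumor and 94.6% to 97.5% in TRAMP prostate, against 62.2% and 67.8% in wild type prostate at 24 weeks and 89.7% at 16 weeks. With the 17 other MMP genes of the files added, of which Mmp15 was the most abundant, its share was 87.4% in the tumor and 69.1% to 84.2% in TRAMP prostate, against 22.9% and 28.3% in wild type prostate at 24 weeks and 66.5% at 16 weeks.

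**Figure D1:**
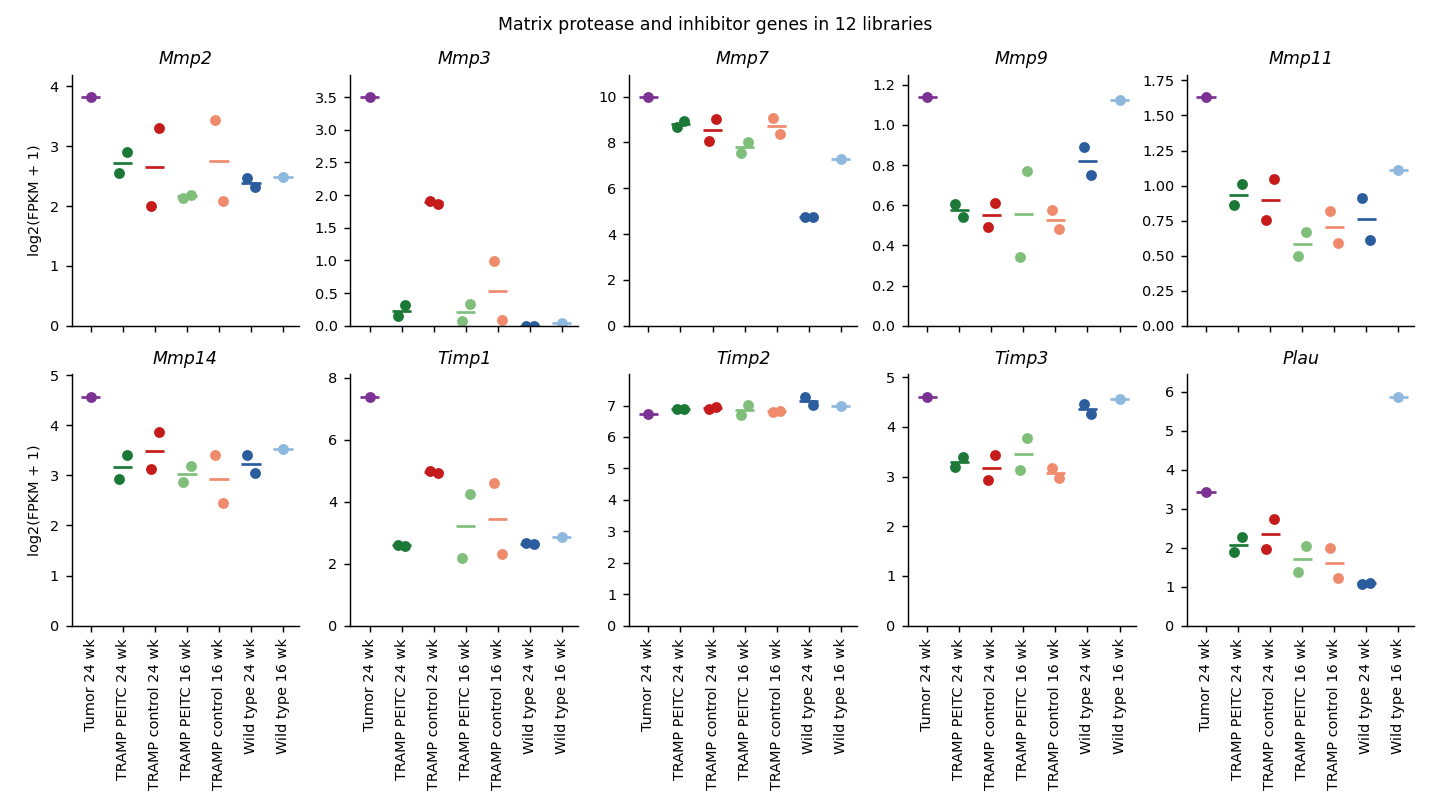
Levels of the 10 genes as log2(FPKM + 1) on the y axis, with a separate scale for each gene; each point is 1 library, and a bar marks the mean of the points of its group. Mmp7 and Mmp3 are highest in the tumor and lowest in 24-week wild type prostate, Timp3 is lower in TRAMP prostate than in the tumor and in wild type, and Plau is highest in the 16-week wild type library.

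Between TRAMP and wild type prostate at 24 weeks on control diet, Mmp7, Mmp3, Timp1 and Plau rose and Timp3 fell. That is 5 of the 10 genes, where 45% of all genes tested were called in this comparison, so the count is near the background. The test was limma on log2(FPKM + 1) over all 12 libraries, with Benjamini-Hochberg adjustment over 13375 genes and a threshold of 0.05, and the differences below are on that scale. The labels do not say that libraries came from separate animals, so these p-values measure the spread between the samples, which may be technical. In whole tissue, more cells of a type and more RNA per cell cannot be told apart. The median difference was 0.26 over the 10 genes and -0.001 over all genes, and the median absolute difference was 0.726 against 0.273.

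Mmp7 averaged 392 ± 181 FPKM in TRAMP prostate and 26.2 ± 0.0207 FPKM in wild type prostate at 24 weeks (SD, n = 2 each), a log2 difference of 3.78 (SE 0.33, limma adjusted p = 0.000101). At 16 weeks it averaged 429.9 ± 140.1 FPKM in TRAMP prostate (SD, n = 2) against 152 FPKM in the single wild type library, a log2 difference of 1.46 (SE 0.41, limma adjusted p = 0.0272). Without replicate 0 of the 16-week control diet group this call was lost (limma adjusted p = 0.0964, against 7.82e-05 to 0.0964 over all alternatives). Against the 24-week wild type libraries the 16-week difference was 3.95. The 16-week wild type library is the one that held seminal vesicle transcripts, and these cannot be told apart from age with 1 library. The wild type libraries differed from each other as well: Mmp7 was lower at 24 than at 16 weeks by a log2 difference of -2.49 (limma adjusted p = 0.0470), a call that was lost without either 24-week library (adjusted p = 0.157 and 0.162, with 0.0142 to 0.162 over all alternatives).

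Mmp3 encodes a stromelysin, which cuts proteoglycans, laminin and fibronectin and activates other pro-MMPs. Its level was 10.3 FPKM in the tumor. It was 0.111 and 0.244 FPKM on PEITC at 24 weeks, 2.74 and 2.66 FPKM on control diet at 24 weeks, 0.0521 and 0.265 FPKM on PEITC at 16 weeks, and 0.994 and 0.0583 FPKM on control diet at 16 weeks. It was listed at 0 in both 24-week wild type libraries and at 0.0274 FPKM in the 16-week one. The control diet libraries at 24 weeks therefore stood above every other prostate library and below the tumor. At 24 weeks TRAMP and wild type prostate differed by 1.89 on the log2(FPKM + 1) scale (SE 0.26, limma adjusted p = 0.000902), called under all 12 alternatives. With wild type at 0, this size is set by the pseudocount and is no fold change. At 16 weeks the difference was 0.50 (SE 0.32) and was not called (limma adjusted p = 0.265).

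The other 4 MMP genes were low and were not called between TRAMP and wild type prostate at 24 weeks, with differences of 0.27 for Mmp14, 0.25 for Mmp2, 0.14 for Mmp11 and -0.27 for Mmp9. Mmp2 and Mmp9 encode the gelatinases, which cut denatured collagen and type IV collagen. Mmp14 encodes a membrane-anchored MMP that activates pro-Mmp2, and Mmp11 one that is released in active form. Mmp2 lay at 13.1 FPKM in the tumor, 2.98 to 9.87 FPKM in TRAMP prostate and 3.97 to 4.57 FPKM in wild type prostate. Mmp14 lay at 22.6 FPKM in the tumor, 4.43 to 13.5 FPKM in TRAMP prostate and 7.27 to 10.6 FPKM in wild type prostate. For both genes the wild type libraries sat inside the TRAMP range and the tumor above it. Mmp11 was 2.09 FPKM in the tumor and at most 1.07 FPKM in TRAMP prostate and 1.16 FPKM in wild type prostate. Mmp9 was 1.20 FPKM in the tumor, 0.266 to 0.704 FPKM in TRAMP prostate and 0.682 to 1.18 FPKM in wild type prostate. At 16 weeks, Mmp9 was lower in TRAMP than in wild type prostate by a log2 difference of -0.60 (SE 0.19, limma adjusted p = 0.0468). That call held in only 3 of 10 alternatives (adjusted p = 0.0321 to 0.172) and was lost without either TRAMP library (adjusted p = 0.0857 and 0.129). The differences of Mmp14 (-0.61), Mmp11 (-0.41) and Mmp2 (0.28) at 16 weeks were not called. All of these 16-week differences, that of Mmp9 included, rest on the single wild type library with seminal vesicle transcripts.

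**Figure D2:**
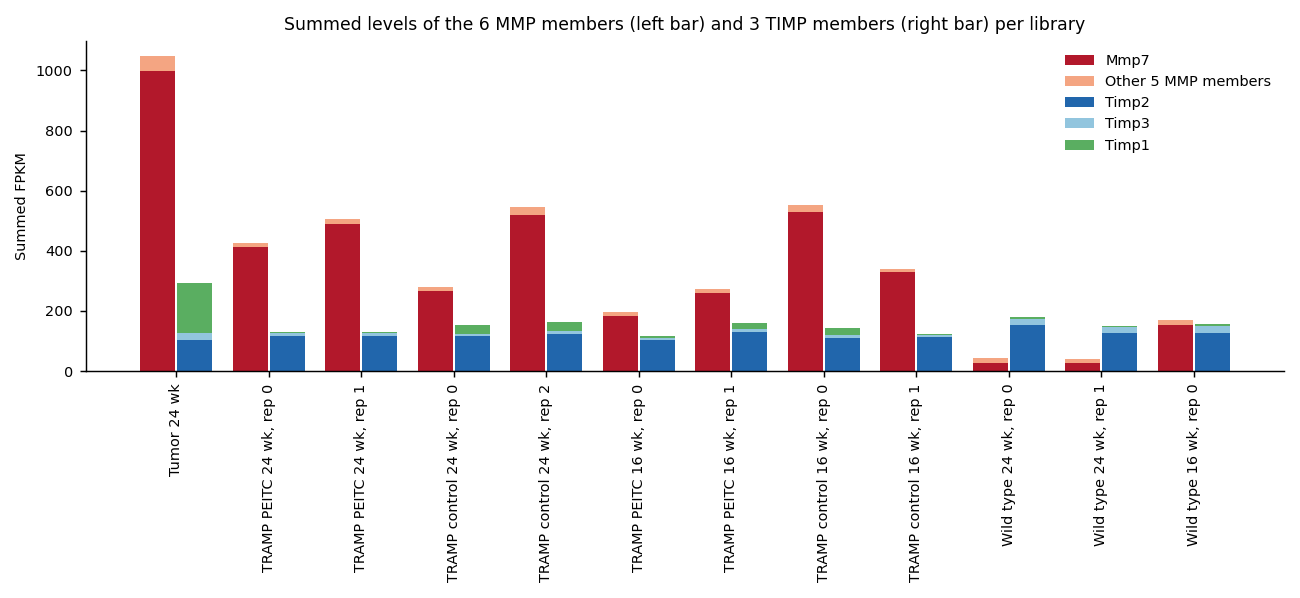
Summed FPKM (y axis) of the 6 MMP genes (left bar) and the 3 TIMP genes (right bar) in each of the 12 libraries, split into Mmp7, the other 5 MMP genes, Timp2, Timp3 and Timp1. The MMP sum is 1046 FPKM in the tumor, 195 to 551 FPKM in TRAMP prostate, and 42.0 and 38.6 FPKM in 24-week wild type prostate, while the TIMP sum exceeds it in the 24-week wild type libraries.

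Set side by side, the summed MMP genes stood at 1046 FPKM and the summed TIMP genes at 293 FPKM in the tumor. In 24-week wild type prostate the MMP sums were 42.0 and 38.6 FPKM and the TIMP sums 179 and 151 FPKM. The 16-week wild type library lay between, with 169 FPKM for the MMP genes and 156 FPKM for the TIMP genes. In all 8 TRAMP prostate libraries the sum of the 6 MMP genes exceeded that of the 3 TIMP genes. With the other MMP genes and Timp4 added, this held in 5 of the 8, and the order was reversed in both PEITC libraries and in control diet replicate 1 at 16 weeks. These sums rest on Mmp7: the other 5 MMP genes together gave 49.2 FPKM in the tumor, 8.61 to 26.6 FPKM in TRAMP prostate and 12.5 to 17.5 FPKM in wild type prostate.

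Timp1 had the widest range of levels among the 3 TIMP genes. It encodes a secreted inhibitor that also binds pro-Mmp9. Its level was 165 FPKM in the tumor. On PEITC at 24 weeks it was 5.08 and 4.97 FPKM, against 31.1 and 29.2 FPKM on control diet at 24 weeks. On PEITC at 16 weeks it was 3.58 and 18.1 FPKM, against 23.4 and 3.93 FPKM on control diet at 16 weeks. In wild type prostate it was 5.31 and 5.16 FPKM at 24 weeks and 6.25 FPKM at 16 weeks. At 24 weeks the PEITC libraries lay just below the wild type ones, with the control diet libraries far above both, and at 16 weeks each diet had 1 high and 1 low library. Between TRAMP and wild type at 24 weeks the log2 difference was 2.32 (SE 0.78, limma adjusted p = 0.0423). Leaving out any of the 4 libraries (either control diet TRAMP library or either wild type library) raised the adjusted p to between 0.114 and 0.137, with 0.000844 to 0.137 over all alternatives. At 16 weeks the difference was 0.60 (SE 0.96) and was not called (limma adjusted p = 0.661).

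The split of Timp1 at 16 weeks ran with fibroblast transcripts, among others. Summed over 12 fibroblast markers, none of them at 0 in any library, the levels on PEITC at 16 weeks were 114 and 221 FPKM, and those on control diet 308 and 121 FPKM, so the library with more Timp1 had more of the markers in both groups. At 24 weeks this did not hold. The fibroblast sums were 174 and 239.9 FPKM on PEITC and 119 and 337 FPKM on control diet, while Timp1 differed little within either group. The tumor, with a fibroblast sum of 256 FPKM, was close to the 16-week wild type library, with 255 FPKM. Summed macrophage markers ordered the 16-week libraries like the fibroblast sums, at 125 and 149 FPKM on PEITC and 196 and 88.4 FPKM on control diet. Endothelial and adipocyte markers had this order too. Smooth muscle markers had the opposite order on control diet, and basal epithelial markers on both diets. Whether the content of any of these cell types takes part in the Timp1 differences was not tested.

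**Figure D3:**
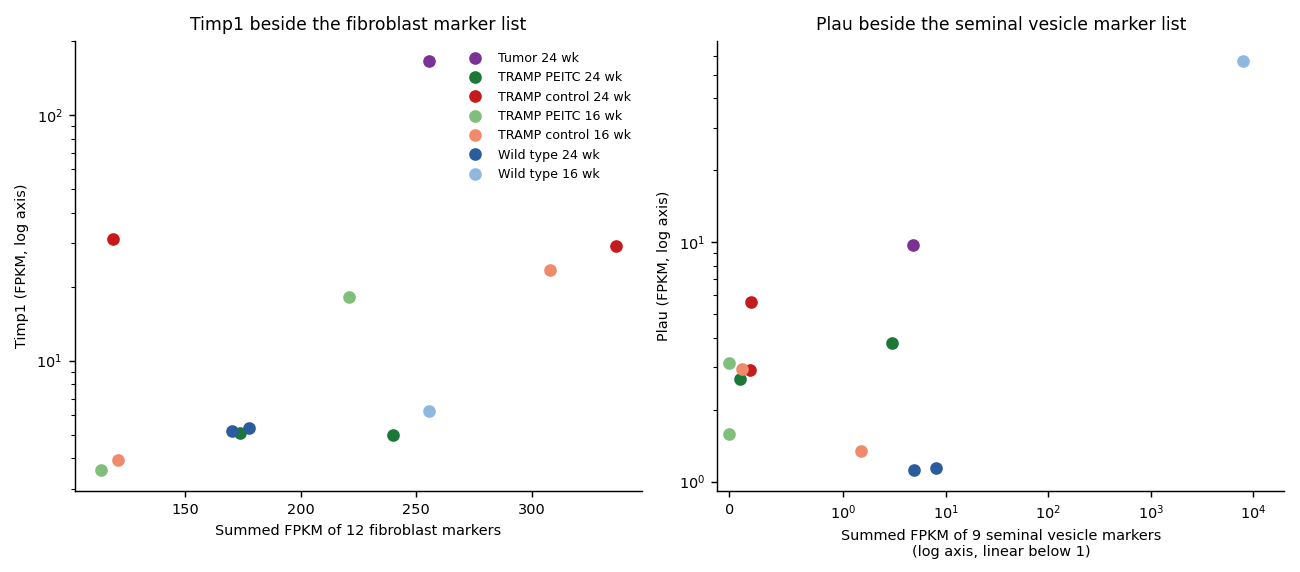
Left, Timp1 (y axis, FPKM, log axis) against the summed FPKM of 12 fibroblast markers (x axis); right, Plau (y axis, FPKM, log axis) against the summed FPKM of 9 seminal vesicle markers (x axis, log scale that is linear below 1); each point is 1 of the 12 libraries, coloured by group. The 2 control diet TRAMP libraries at 24 weeks have Timp1 near 30 FPKM (31.1 and 29.2) at fibroblast sums of 119 and 337 FPKM, and the 16-week wild type library stands alone at the top right of the Plau panel.

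Timp3 fell in TRAMP prostate at both ages. Timp3 encodes an inhibitor held in the matrix that also blocks several ADAM proteases. Its level was 23.2 FPKM in the tumor, 8.10 and 9.54 FPKM on PEITC at 24 weeks, and 6.60 and 9.76 FPKM on control diet at 24 weeks. At 16 weeks it was 7.78 and 12.7 FPKM on PEITC and 8.04 and 6.87 FPKM on control diet. In wild type prostate it was 20.9 and 18.3 FPKM at 24 weeks and 22.5 FPKM at 16 weeks. The tumor and the wild type libraries lay above all 8 TRAMP prostate libraries. Timp3 averaged 8.18 ± 2.24 FPKM in TRAMP and 19.6 ± 1.89 FPKM in wild type prostate at 24 weeks (SD, n = 2 each), a log2 difference of -1.18 (SE 0.23, limma adjusted p = 0.00437) that was called under all 12 alternatives. At 16 weeks the difference was -1.48 (SE 0.28, limma adjusted p = 0.00570). Summed smooth muscle markers (10 genes, none at 0) moved the same way between these groups, at 339 to 778 FPKM in TRAMP prostate and 891 to 1065 FPKM in wild type prostate, but stood at 327 FPKM in the tumor, where Timp3 was high. Summed basal epithelial markers (7 genes) stood at 45.9 to 72.6 FPKM in TRAMP prostate and 131 to 163 FPKM in wild type prostate. In the tumor they were at 115 FPKM, above TRAMP prostate, as Timp3 was. Prostate secretory markers were lowest in the tumor, and macrophage markers were lower in wild type than in TRAMP prostate. Whether the content of any of these cells takes part in the Timp3 difference was not tested.

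Timp2, which blocks MMPs and also bridges pro-Mmp2 to Mmp14, was the steadiest of the 10 genes and the most abundant TIMP member except in the tumor. It lay at 104 FPKM in the tumor, 104 to 128 FPKM in TRAMP prostate and 127 to 153 FPKM in wild type prostate. The difference between TRAMP and wild type prostate was -0.22 at 24 weeks (95% interval -0.48 to 0.04) and -0.19 at 16 weeks (95% interval -0.50 to 0.13), and neither was called. Timp2 gave 35.6% of the summed TIMP genes in the tumor, against 81.5% to 85.3% in wild type prostate.

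Plau rose in TRAMP prostate at 24 weeks and stood far lower in TRAMP than in wild type prostate at 16 weeks. Its level was 9.76 FPKM in the tumor, 2.70 and 3.81 FPKM on PEITC at 24 weeks, 2.92 and 5.61 FPKM on control diet at 24 weeks, 1.58 and 3.13 FPKM on PEITC at 16 weeks, and 2.97 and 1.34 FPKM on control diet at 16 weeks. In wild type prostate it was 1.12 and 1.13 FPKM at 24 weeks and 57.2 FPKM at 16 weeks. The 16-week wild type library stood above all others, and the 24-week wild type libraries below all others. At 24 weeks the log2 difference was 1.26 (SE 0.34, limma adjusted p = 0.0189). It was lost without replicate 2 of the control diet TRAMP group (adjusted p = 0.106) or without either wild type library (0.0696 and 0.0751), with 0.0138 to 0.106 over all alternatives.

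At 16 weeks the log2 difference of Plau was -4.26 (SE 0.42, limma adjusted p = 0.000367). The comparison called 4 of the 10 genes (Mmp7 higher, and Mmp9, Timp3 and Plau lower), against 33.6% of all genes tested. The single wild type library behind it is the one with seminal vesicle transcripts: Svs2 and Svs5, which encode seminal vesicle secretory proteins, were at 3095 and 2945 FPKM in it and at most 3.04 and 3.97 FPKM in any other library. Against the 24-week wild type libraries the sign of Plau turned, to 0.52 (limma adjusted p = 0.253). Within wild type, Plau was lower at 24 than at 16 weeks by a log2 difference of -4.78 (SE 0.42, limma adjusted p = 0.00204), 1 of 2 genes called where 0.665% of all genes were. The inhibitor gene Serpine2, which encodes a serpin that blocks urokinase and thrombin, followed the same order, with 4.67 and 8.97 FPKM in wild type prostate at 24 weeks and 91.7 FPKM at 16 weeks (limma adjusted p = 0.117). The gap between the TRAMP effects at 24 and 16 weeks was 5.52 for Plau (SE 0.54, limma adjusted p = 0.00429), the 1 gene of the 10 called where 0.366% of all genes were. Age and the seminal vesicle transcripts cannot be told apart with 1 library. The high Plau level of this library was known when the 10 genes were listed. The calls of Plau that use this library restate that level and are no independent result, whatever the share of all genes called.

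The tumor was set against TRAMP prostate of the same age and diet. Mmp3 and Timp3 rose in it, 2 of the 10 genes, where 11.8% of all genes tested were called. Mmp3 differed by a log2 value of 1.61 (SE 0.32, limma adjusted p = 0.0199) and Timp3 by 1.42 (SE 0.28, limma adjusted p = 0.0192). The other differences were 2.42 for Timp1, 1.42 for Mmp7, 1.17 for Mmp2, 1.08 for Plau, 1.07 for Mmp14, 0.73 for Mmp11, 0.59 for Mmp9 and -0.20 for Timp2, none of them called (limma adjusted p between 0.0573 and 0.392). In level, the tumor lay above both TRAMP control diet libraries at 24 weeks for all of the 10 genes except Timp2. The share of all genes for which this held was not counted. The median difference was 1.12 over the 10 genes and -0.006 over all genes. With 1 tumor library the spread is assumed to be that of the other groups, and the call of Mmp3 was lost without either TRAMP library (adjusted p = 0.0544 and 0.0527, with 0.00108 to 0.278 over all alternatives) and that of Timp3 without replicate 0 (adjusted p = 0.0562).

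Against wild type prostate at 24 weeks, 7 of the 10 genes were called in the tumor, where 52.2% of all genes were. Mmp7 rose by 5.20 (SE 0.41, limma adjusted p = 4.73e-05), Timp1 by 4.74 (SE 0.96, adjusted p = 0.00420), Plau by 2.34 (SE 0.42, adjusted p = 0.00232), Mmp14 by 1.33 (SE 0.44, adjusted p = 0.0333) and Mmp11 by 0.87 (SE 0.20, adjusted p = 0.00855). Mmp3 rose by 3.49 on the log2(FPKM + 1) scale against wild type libraries listed at 0. Timp2 fell by 0.42 (SE 0.14, limma adjusted p = 0.0337). Mmp2 (1.42), Mmp9 (0.32) and Timp3 (0.24) did not pass the threshold. The call of Mmp14 was lost without either wild type library (adjusted p = 0.0529 and 0.122), and that of Timp2 held in only 5 of 10 alternatives (adjusted p = 0.0183 to 0.127). This comparison shares its wild type libraries with that of TRAMP against wild type.

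**Figure D4:**
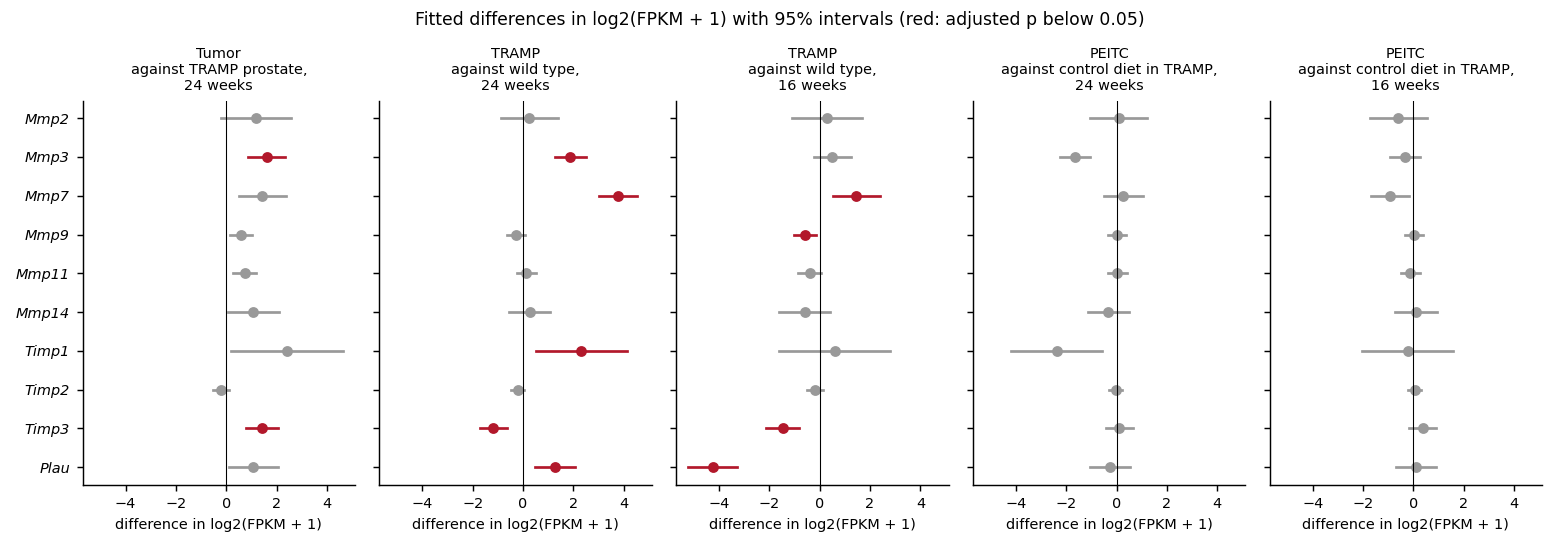
Fitted differences in log2(FPKM + 1) (x axis) with 95% intervals for the 10 genes in 5 comparisons; red marks an adjusted p below 0.05. Red points are Mmp3 and Timp3 for the tumor against TRAMP prostate, 5 genes for TRAMP against wild type at 24 weeks, 4 at 16 weeks, and none for PEITC against control diet; the Mmp3 value against wild type at 24 weeks rests on libraries listed at 0.

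PEITC was compared with control diet in TRAMP prostate at each age. At 24 weeks none of the 10 genes was called by limma, and 0 of 13375 genes were (0%). At an unadjusted p under 0.05 there were 1267 genes, Mmp3 and Timp1 among them. Mmp3 averaged 0.177 ± 0.0942 FPKM on PEITC and 2.70 ± 0.0629 FPKM on control diet (SD, n = 2 each), a difference of -1.65 (95% interval -2.26 to -1.05, limma adjusted p = 0.415). Timp1 averaged 5.03 ± 0.0747 FPKM on PEITC and 30.2 ± 1.34 FPKM on control diet (SD, n = 2 each), a difference of -2.37 (95% interval -4.18 to -0.56, limma adjusted p = 0.483). For both genes the groups did not overlap. The share of all genes without overlap was not counted, and an SD from 2 libraries is itself uncertain.

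A fit of only the 2 diet groups at 24 weeks called Timp1 (limma adjusted p = 0.0215) and no other gene of the 13375. Over all alternatives the adjusted p of Timp1 was 0.0215 to 0.962, and that of Mmp3 was 0.0819 to 0.962. Mmp7 did not follow, with a difference of 0.27 (95% interval -0.49 to 1.04), and neither did Plau, at -0.27 (95% interval -1.06 to 0.52), nor Timp3, at 0.12 (95% interval -0.42 to 0.65). The intervals of the remaining genes also held 0.

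At 16 weeks on PEITC none of the 10 genes was called, and 1 of 13375 genes was (0.00748%), with 1347 genes at an unadjusted p under 0.05. Mmp7 averaged 222 ± 52.1 FPKM on PEITC and 429.9 ± 140.1 FPKM on control diet (SD, n = 2 each), a difference of -0.93 (95% interval -1.70 to -0.17, limma adjusted p = 0.438). Its groups did not overlap, and the share of all genes without overlap was not counted here either. Timp1 differed by -0.23 (95% interval -2.04 to 1.58) and Mmp3 by -0.33 (95% interval -0.94 to 0.28), with groups that overlapped. The diet effect was not shown to differ between ages: the difference of the 2 effects was -1.32 for Mmp3 (limma adjusted p = 0.306), 1.21 for Mmp7 (0.353) and -2.14 for Timp1 (0.442), again where 0.00748% of genes were called. Averaged over both ages, limma called none of the 10 genes and 0% of all genes, with 889 genes at an unadjusted p under 0.05, again including Mmp3 (-0.99) and Timp1 (-1.30).

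PEITC-fed TRAMP prostate was also set against wild type prostate at 24 weeks, where 45.5% of all genes were called. Mmp7 rose by 4.05 (SE 0.33, limma adjusted p = 6.5e-05), Plau rose by 0.99 (SE 0.34, adjusted p = 0.0461) and Timp3 fell by 1.07 (SE 0.23, adjusted p = 0.00662). The call of Plau held in only 4 of 13 alternatives (adjusted p = 0.00824 to 0.205) and was lost without any 1 of the 4 libraries. Timp1 differed by -0.05 (95% interval -1.86 to 1.76) and Mmp3 by 0.23 (95% interval -0.37 to 0.84), and the remaining 5 genes by -0.25 (Timp2) to 0.33 (Mmp2), none of them called. This comparison shares its PEITC libraries with the diet comparison and its wild type libraries with that of TRAMP against wild type.

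Between ages within TRAMP, limma called none of the 10 genes. On control diet 0.00748% of all genes were called and 2261 genes reached an unadjusted p under 0.05, Mmp3 among the 10 (difference 1.35, 24 minus 16 weeks, limma adjusted p = 0.178). On PEITC 0% were called and 1075 genes reached an unadjusted p under 0.05, Mmp7 among the 10 (difference 1.03, limma adjusted p = 0.555).

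Other genes of the system were counted over fixed lists, chosen like the 10 genes with earlier results known. In TRAMP against wild type prostate at 24 weeks, 6 of the 8 tested genes of the plasminogen activation system rose and none fell, with a median difference of 0.93 against -0.001 over all genes, of which 45% were called. Plat, which encodes tissue plasminogen activator, averaged 6.01 ± 2.56 FPKM in TRAMP and 0.864 ± 0.0996 FPKM in wild type prostate (SD, n = 2 each), a log2 difference of 1.86 (SE 0.36, limma adjusted p = 0.00434). Masp1, a complement protease, rose by 1.85, Hgfac, which activates hepatocyte growth factor, by 1.72, and Plaur, the urokinase receptor gene, by 0.74. In the tumor against wild type, where 52.2% of all genes were called, all 8 rose, with a median of 2.49 against 0.004 over all genes. Plaur stood at 10.6 FPKM in the tumor, against 2.71 ± 0.378 FPKM in TRAMP prostate on control diet and 1.26 ± 0.593 FPKM in wild type prostate at 24 weeks (SD, n = 2 each). It rose by 1.65 in the tumor against TRAMP prostate (SE 0.30, limma adjusted p = 0.0156).

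Of 9 other genes listed as metalloproteinase inhibitors or related genes, 6 were tested and 3 fell at 24 weeks in TRAMP prostate. That share is near the 45% of all genes called. Spock2 fell by 1.03, Timp4 by 0.69 and Spock1 by 0.59. Timp4 was more abundant than the TIMP members in prostate, at 70.1 FPKM in the tumor, 143 to 275 FPKM in TRAMP prostate and 259 to 309.9 FPKM in wild type prostate. It fell by 1.31 in the tumor against TRAMP prostate (SE 0.22, limma adjusted p = 0.0121). Of the other MMP genes only 4 of 17 passed the filter. Mmp15, a membrane-anchored MMP gene, rose by 0.56 to 85.9 ± 10.2 FPKM in TRAMP prostate, against 58.3 ± 12.4 FPKM in wild type prostate (SD, n = 2 each), and Mmp16 fell by 0.42.

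The counts that follow stand against the same 45% of all genes called. Among 14 tested ADAM and ADAMTS genes 6 rose and 3 fell in TRAMP prostate at 24 weeks, and among 14 cathepsins and other matrix-cutting proteases 6 rose and 2 fell. Ctss, a cathepsin gene of antigen-presenting cells, averaged 59.96 ± 19.5 FPKM in TRAMP and 18.5 ± 1.43 FPKM in wild type prostate (SD, n = 2 each), a log2 difference of 1.61, beside 7 of 10 macrophage markers that rose. Of the 7 membrane serine protease and inhibitor genes 2 rose and 2 fell. Tmprss4, a membrane serine protease gene, rose by 1.69 and Hpn, which encodes hepsin, fell by 0.71. Of 25 matrix substrate genes 1 rose and 2 fell, Col6a3 by 1.16 and Hspg2, the perlecan gene, by 0.67. Of 19 tested regulator genes 7 rose and 4 fell. The AP-1 genes Fos and Jun rose by 1.75 and 1.11 and Cd44, a hyaluronan receptor gene, by 1.31. Fos varied within wild type prostate, at 0.818 and 4.21 FPKM at 24 weeks and 22.8 FPKM in the 16-week library. That library stood above all TRAMP prostate libraries (4.86 to 14.4 FPKM) for Fos. For Jun, at 19.6 FPKM, it stood below all of them. Under PEITC limma called 0 genes of these 8 lists at 24 weeks, at 16 weeks and over both ages.

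In the 12 libraries, the gene whose log2(FPKM + 1) pattern was most like that of Mmp7 was Elovl5 (Pearson r = 0.982), followed by Plac8 and Wfdc15b (both 0.975). For Timp1 they were Aldh1a2 (0.964), Clca3a2 (0.951) and Mmp3 (0.950), and for Mmp3 they were Clca3a2 (0.980), Gnai2 (0.974) and Il4ra (0.973). For Timp3 they were Arhgef17 (0.978), Wnt9a (0.962) and Fzd1 (0.956). For Mmp2 they were Cdh11 (0.973), Cox6b2 (0.932) and Igfbp7 (0.930), and for Plau they were Ndrg4 (0.945), Gsdma (0.932) and Stap1 (0.927). For Mmp9 they were Wwtr1 (0.973), Upk2 (0.943) and Tceb2 (0.935), for Mmp11 Map4k4 (0.958), Itsn1 (0.946) and Nav1 (0.944), for Mmp14 Renbp (0.965), Efemp2 (0.952) and S100a13 (0.949), and for Timp2 Aes (0.915), Prlh (0.908) and Mthfd2l (0.905). These are descriptions over libraries that share groups, and the tumor and the 16-week wild type library weigh in them.

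Several of the 10 genes overlap another gene, and the sources used here do not say whether counting used strand. Timp1 lies in the region of Syn1, on the opposite strand, which was at 0.179 to 1.44 FPKM. Timp3 overlaps Syn3 (1.03 to 1.62 FPKM) and Mmp7 overlaps the antisense gene AV064505 (0 to 0.190 FPKM). Mmp11 overlaps Chchd10, on the opposite strand, which was at 59.7 to 79.3 FPKM, so the low Mmp11 values are uncertain. Timp2 overlaps Cep295nl, and Mmp2, Mmp3, Mmp9, Mmp14 and Plau overlap no other annotated gene.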

How the data were processed

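RNA sequencing libraries of total RNA from mouse prostate and 1 tumor were analysed from the 12 deposited tables of FPKM per gene. Per the submitters' processing notes, the authors used HISAT2, Picard, featureCounts and DESeq2 with the mm10 build, versions not given in the sources used here; which tool made the FPKM values and whether counting used strand are not given either. Values were used as the authors deposited them, as log2(FPKM + 1), for the 13375 genes whose mean reached 0.5 FPKM. limma 3.58.1 (R 4.3.3) fitted 7 group means with an intensity trend (5 residual degrees of freedom, two-sided, Benjamini-Hochberg over all genes, threshold 0.05), after a check on simulated data. Read totals were not in the files; relative depth came from the smallest FPKM steps. Figures used matplotlib 3.10.9. GENCODE positions matched all 10 genes.

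The members and lists were chosen with earlier results of these data known. The naming rule takes all 10 genes in each comparison, at most 4 called genes from each other list, by size, and the 3 genes most like each member; some of the 10 that were not called are given only as a range or a count. Alternatives changed the pseudocount (0.1 or 5), the filter (none, or a mean of 1), the normalization (quantile, or scaling without the 50 most abundant genes), the trend, the libraries fitted, the wild type libraries used at 16 weeks and the replicate block, and left out each library. Promoter windows were found for 7 of the 10 genes, not for Mmp2, Mmp9 and Plau. Results for 1 gene are not reported here.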

Additional observations from a re-analysis of the deposited data

Results flagged for a closer look

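The difference between TRAMP and wild type prostate was itself different at the 2 ages for Plau. The log2 difference was 1.26 at 24 weeks and -4.26 at 16 weeks, a gap of 5.52 (SE 0.54, limma adjusted p = 0.00429), where 0.366% of genes were called. The gap kept its call under all 14 alternatives, but each of them kept the single 16-week wild type library, so they could not test its weight. The gap rests on the 57.2 FPKM of that library, in which summed seminal vesicle markers were 7826 FPKM. That Plau level was known when the genes were listed, so the call of the gap is no independent result. The part of those transcripts in the gap was not tested. No other of the 10 genes passed the threshold for such a gap: it was 2.32 for Mmp7 (limma adjusted p = 0.142) and 1.39 for Mmp3 (0.205).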

How the results depend on the processing

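Counts of the 10 genes called moved by over 1.5 times in 6 comparisons. For TRAMP against wild type, leaving out 1 library gave 3 to 4 at 24 weeks (5 in all libraries) and 2 to 4 at 16 weeks (4). For the tumor against TRAMP prostate the count of 2 became 1 with a pseudocount of 0.1, 0 when only the groups compared were fitted (1573 genes called then became 0) and 0 to 2 with 1 library left out. For 24 against 16 weeks in wild type the count of 2 became 1 with a pseudocount of 5, a minimum mean of 1, quantile normalization, no trend, or either library left out. Genes called there ranged from 27 (only those groups fitted) to 461 (no filter), against 89. For PEITC at 24 weeks the count of 0 became 1 when only the groups compared were fitted. For the gap in the TRAMP effect between ages, 1 became 1 to 2 with 1 library left out; Mmp3 was called without replicate 0 of the 16-week control diet group (adjusted p = 0.0358). Genes called under PEITC at 24 weeks became 9 with no filter, 160 without control diet replicate 2 and 25 without PEITC replicate 0. Genes called in TRAMP against wild type at 16 weeks became 2198, against 4490, when only those groups were fitted. Those for the gap in the TRAMP effect ranged from 27 to 297, against 49, and those between ages on control diet became 260, against 1, without 24-week replicate 2. Genes called in PEITC-fed TRAMP against wild type became 3941, against 6087, without PEITC replicate 1.

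Signs turned for Plau in TRAMP against wild type at 16 weeks (0.52 against the 24-week wild type libraries), for Timp1 there (-0.56 to 1.75 with either TRAMP library left out) and between ages on PEITC (-1.67 to 0.39 with a 16-week library left out), and for Mmp2 under PEITC at 16 weeks (-1.28 to 0.0888) and in the difference of the PEITC effects (-0.0104 to 1.36), where leaving out 16-week control diet replicate 0 turned both. The cause was not tested. Scaling without the 50 most abundant genes shifted the median of all genes by 0.10 in TRAMP against wild type at either age, and put 66.6% of called genes higher at 24 weeks, against 51.1%, and 70.3% at 16 weeks, against 54.1%; in PEITC-fed TRAMP against wild type the shift was 0.11 and the share 67.8%, against 50.1%. It turned no sign among the results recomputed for the 10 genes.

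Replicate numbers 0 and 1 are shared by 4 groups, and the labels do not say that they pair samples. Deviations of same-numbered libraries correlated between -0.310 and 0.282, which cannot decide whether samples are paired. With the replicate block (8 libraries, 3 residual degrees of freedom) the count of the 10 genes called was 0 for PEITC at 16 weeks, 0 for 24 against 16 weeks on PEITC, and 2 for PEITC-fed TRAMP against wild type. There it was 3 without the block, and the gene lost was Plau (adjusted p = 0.0514). A crossed pairing of the 16-week diet groups, chosen after seeing the data, called 0 of the 10 genes. Groups of 1 or 2 libraries limit all of these tests.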

Other observations

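Within the TRAMP control diet groups, the library with more fibroblast marker RNA also had more Mmp2 and Mmp14. Mmp2 was 2.98 and 8.85 FPKM in the 24-week libraries, whose summed fibroblast markers were 119 and 337 FPKM, and Mmp14 was 7.73 and 13.5 FPKM in the same libraries. At 16 weeks Mmp2 was 9.87 and 3.22 FPKM and Mmp14 was 9.62 and 4.43 FPKM at fibroblast sums of 308 and 121 FPKM. Summed macrophage markers had the same order, at 146 and 293 FPKM at 24 weeks and 196 and 88.4 FPKM at 16 weeks. Endothelial and adipocyte markers had it too, while T and NK cell and smooth muscle markers did not keep it at both ages. The cell source of Mmp2 and Mmp14 was not tested. The tumor, with Mmp2 at 13.1 FPKM and Mmp14 at 22.6 FPKM, had a fibroblast sum of 256 FPKM, within the range of the TRAMP libraries. Tnc, which encodes the matrix protein tenascin C, stood at 10.1 FPKM in the tumor, against 1.29 ± 0.307 FPKM in TRAMP prostate on control diet at 24 weeks (SD, n = 2), a log2 difference of 2.28 (SE 0.32, limma adjusted p = 0.00685). Cd44 stood at 34.0 FPKM in the tumor, against 8.58 ± 0.0245 FPKM in those TRAMP libraries (SD, n = 2), a log2 difference of 1.87 (SE 0.32, limma adjusted p = 0.0123). On PEITC at 24 weeks the means were 0.503 ± 0.0893 FPKM for Tnc and 5.01 ± 0.650 FPKM for Cd44 (SD, n = 2), and neither diet difference was called.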
